A study of Mus musculus with 165 samples.

Results

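The 8 genes described here encode the enzymes, and 1 helper protein, that free arachidonic acid from membranes and turn it into leukotrienes and prostaglandins. They were chosen by symbol, and all 8 are among the 36255 genes measured. RNA-Seq was performed on PUER cells, an IL3-dependent mouse myeloid progenitor line that lacks functional Spi1 (PU.1) and carries a fusion of PU.1 with the estrogen receptor, which 4-hydroxy-tamoxifen (OHT) activates. Every group carries this fusion, and the cells are 1 line in culture. Undifferentiated cells were kept in IL3 without OHT (3 libraries). For the IL3-OHT course, 200 nM OHT was added to such cells in IL3, and 27 time points from 1h to 168h were sequenced (81 libraries). For the GCSF-OHT course, cells were washed and IL3 was replaced by GCSF for 48h. This pre-treatment gave the GCSF 0h group (3 libraries, taken here as without OHT), in which added GCSF and lost IL3 cannot be told apart. These cells then received 100 nM OHT in GCSF over the same 27 time points (78 libraries). The doses of OHT and the pre-treatment thus differed between the courses, so cytokine, dose and pre-treatment cannot be told apart. The labels number the replicates within each group, which had 3 libraries, or 2 at GCSF-OHT 96h, 112h and 152h. Each time point was a plate of its own, so that time and plate cannot be told apart. No library without OHT was taken after 0h, so OHT and the time since its addition cannot be told apart. Cells were detached with trypsin at every time point after 24h. Part of the medium was replaced, with fresh OHT, at 40h, 88h and 136h. The libraries at IL3-OHT 96h and 144h, excluded by the study as outliers, entered no test unless stated and are described on their own.

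Arachidonic acid is released by cytosolic phospholipase A2 (Pla2g4a). The 5-lipoxygenase (Alox5), with its activating protein (Alox5ap, also called FLAP), converts it to leukotriene A4, which leukotriene A4 hydrolase (Lta4h) turns into leukotriene B4, a strong attractant of neutrophils, or leukotriene C4 synthase (Ltc4s) couples to glutathione to start the cysteinyl leukotrienes. The cyclooxygenases Ptgs1 (COX-1, usually steadily expressed) and Ptgs2 (COX-2, an immediate-early gene in many cells) make prostaglandin H2, from which Hpgds makes prostaglandin D2, a product best known from mast cells. Neutrophils and macrophages are major sources of leukotriene B4 and of prostanoids.

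Libraries held 14600246 to 33147945 reads on genes (median 21960878), so that 3 reads, taken as the floor of detection, were worth 1.96 to 5.51 normalized counts. Spi1, whose reads can come from the fusion, lay between 4482 and 13387 normalized counts in every library. Among the markers examined, the summed neutrophil list was 149163 to 157082 in undifferentiated cells, 639499 to 680618 at GCSF-OHT 168h and 201922 to 236802 at IL3-OHT 168h. The summed macrophage list was 2708 to 2986, 8759 to 9896 and 12665 to 13704 in the same groups, with C1qa at 3 reads or fewer in every library. Of the 11 markers of mast cells and basophils, 7 (Cpa3, Mcpt4, Tpsb2, Tpsab1, Cma1, Fcer1a and Prss34) were at 3 reads or fewer in every library. The rest of that list (Mcpt8, Ms4a2, Hdc and Gata2) exceeded 3 reads in some libraries, and the summed list ran from 53.8 to 959 over all libraries.

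Because PU.1 activity is what OHT switches on in these cells, the letters in front of the start sites were read from RefSeq (GRCm38.p6), for 7 of the 8 members; the promoter of Alox5ap was not analysed here. The 250 bases before the start are shown for Ptgs2 (chr1:150099781-150100030, plus strand), Ptgs1 (chr2:36230176-36230425, plus strand) and Alox5 (chr6:116461179-116461428, minus strand). These members were called against the start of OHT at many time points, and their windows hold a searched motif. Ltc4s and Hpgds, whose windows also hold one, had low reads and are not shown. Each is written 5′ to 3′ along its gene, and capitals mark the motif matches.
Ptgs2: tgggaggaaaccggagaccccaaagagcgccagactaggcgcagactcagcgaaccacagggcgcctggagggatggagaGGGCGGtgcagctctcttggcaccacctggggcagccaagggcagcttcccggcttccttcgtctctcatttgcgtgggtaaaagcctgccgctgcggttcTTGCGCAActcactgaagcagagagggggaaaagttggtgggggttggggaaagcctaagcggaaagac
Ptgs1: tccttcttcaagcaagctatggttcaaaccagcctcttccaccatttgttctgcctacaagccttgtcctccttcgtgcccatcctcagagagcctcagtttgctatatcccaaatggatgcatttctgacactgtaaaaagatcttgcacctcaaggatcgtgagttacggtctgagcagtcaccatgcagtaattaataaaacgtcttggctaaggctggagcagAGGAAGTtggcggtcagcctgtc
Alox5: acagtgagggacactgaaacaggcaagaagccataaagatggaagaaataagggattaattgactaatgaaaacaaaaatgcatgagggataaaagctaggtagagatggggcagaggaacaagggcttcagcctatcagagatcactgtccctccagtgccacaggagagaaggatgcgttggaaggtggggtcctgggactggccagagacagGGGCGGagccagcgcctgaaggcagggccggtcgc
The motifs were searched on both strands, and none overlap one another in these windows. They were AGGAAGT (the ETS core bound by PU.1 and its relatives), TTGCNNAA (a C/EBP motif, with N any base) and GGGCGG (the GC box). CACGTG (the E box) and ACGTCA (the cAMP response element) were searched as well. The ETS core stood 23 bases before the start of Ptgs1, 48 before that of Hpgds and further upstream before that of Ltc4s, and 14 before the more downstream of both starts listed for Pla2g4a. It was present in 7.69% of all 32851 promoter windows. The C/EBP motif stood 69 bases before the start of Ptgs2 (TTGCGCAA, a palindrome) and 176 before that of Hpgds (TTATGCAA, not a palindrome). The motif, in any form, was present in 9.56% of all windows. The GC box stood 170 bases before the start of Ptgs2 and 35 before that of Alox5, against 32.7% of all windows. The E box (6.02% of windows) and the cAMP response element (6.47%) were in none of the members' windows, and the window of Lta4h held none of the 5 motifs. Only the 250 bases before each listed start were searched, so motifs beyond them, or before another start, would be missed. These matches describe letters and were not tested for binding.

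The members differed widely in level. Per kb of exon, Alox5ap had the highest normalized count of the 8 members in 56 of 56 groups (3772 to 7241 per kb over the group means), and Hpgds the lowest in 56 of 56 (0.507 to 3.69 per kb). Alox5 (479 to 2044 per kb), Lta4h (203.8 to 1645 per kb) and Ptgs1 (224 to 989 per kb) held the ranks from 2 to 4 in every group. Pla2g4a, Ptgs2 and Ltc4s followed at 34.4 to 88.1, 5.36 to 298 and 2.10 to 38.8 per kb. The low reads of Ltc4s and Hpgds, each with 1 library at 0, limit what can be said of them. All other values below are normalized counts, which compare a gene with itself, and fold changes are on the scale of log2(normalized count + 1). A gene was called where limma's Benjamini-Hochberg adjusted p was below 0.05 and its log2 fold change exceeded 0.58 in size, among 17414 genes tested. All 8 members passed the filter on low values.

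**Figure D1:**
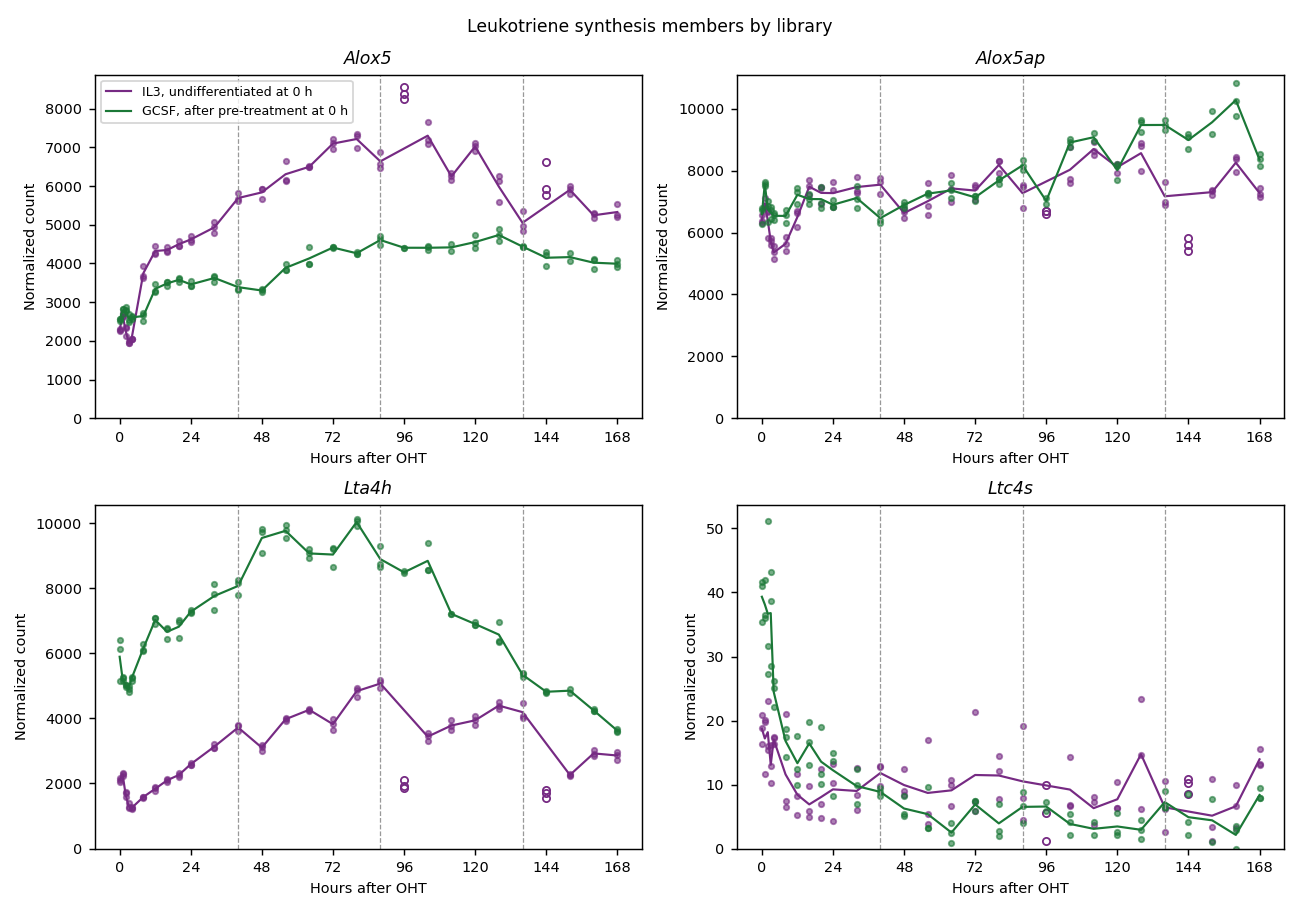
Normalized counts (linear axes from 0) of the 4 leukotriene members against hours after OHT, with 1 point per library and lines through the group means; purple is the IL3 course, starting from undifferentiated cells, and green the GCSF course, starting from GCSF 0h. Open points are the IL3-OHT 96h and 144h libraries kept out of the tests and dashed lines the medium renewals. Lta4h lies higher in GCSF and Alox5 higher in IL3 from 8h on.

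Pla2g4a, the phospholipase at the head of both branches, dipped early and briefly in both courses. In IL3 it was 395, 408 and 428 in the 3 undifferentiated libraries and 222.5, 213.9 and 222.8 at 3h. The groups did not overlap, and the fall was -0.90 (SE 0.0835, adjusted p = 1.11e-17), with a further call at 4h (-0.76). In GCSF it was 430, 499 and 485 at 0h and 272, 281 and 331 at 4h, a fall of -0.68 (adjusted p = 2.57e-11). From 8h on no time point was called against the start of either course, and Pla2g4a was called at none of the 25 shared time points between the courses. Its highest means were 563 ± 19.7 (SD, n = 3) at GCSF-OHT 40h and 482 ± 34.5 (SD, n = 3) at IL3-OHT 48h.

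Alox5, which commits arachidonic acid to the leukotrienes, rose in both courses, with the first call at 8h in IL3 and at 56h in GCSF. The undifferentiated libraries held 2249, 2287 and 2307, and those at IL3-OHT 8h 3685, 3617 and 3944. This rise above the start (0.72, SE 0.0363, adjusted p = 1.26e-36) took place between 4h, with libraries at 2047, 2046 and 2039, and 8h (0.87 for this step, adjusted p = 8.73e-43). All 21 time points from 8h to 168h that entered the tests were called higher than the start. The highest of them was 104h, at 7646, 7077 and 7180 (1.68, adjusted p = 4.42e-72). By 168h Alox5 was back at 5525, 5251 and 5210, still 1.22 above the start (SE 0.0363, adjusted p = 4.05e-58). In GCSF it stood at 2568, 2552 and 2521 at 0h and at 2679, 2723 and 2522 at 8h, where the groups overlapped. Its largest single step in GCSF came from 8h to 12h (0.34, adjusted p = 6.38e-13), below the fold threshold. The first call at 56h thus marks where the threshold was passed, not where the rise began. Calls against GCSF 0h began at 56h (0.61, adjusted p = 1.54e-30) and covered all 15 time points to 168h. The highest mean was at 128h (4730, 4895 and 4579, a rise of 0.89, adjusted p = 4.13e-45).

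Alox5ap, which presents arachidonic acid to Alox5, moved least of the abundant members. It was 6304, 6566 and 6361 in undifferentiated cells, 6790, 6270 and 6723 at GCSF 0h, 8532, 8152 and 8385 at GCSF-OHT 168h and 7449, 7146 and 7244 at IL3-OHT 168h. Only 1 time point of either course was called against its start, GCSF-OHT 160h, with 10255, 9767 and 10824 (0.64, SE 0.046, adjusted p = 5.09e-25). At IL3-OHT 168h the difference from the start was 0.18 (SE 0.046, adjusted p = 0.00036), below the fold threshold. Alox5 and Alox5ap, whose proteins act together, thus differed in the size of their changes in IL3: 21 calls against 0.

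Lta4h, which makes leukotriene B4, was the leukotriene member most changed in the GCSF pre-treatment. From 2114, 2045 and 2157 in undifferentiated cells it rose to 5144, 6414 and 6130 after 48h in GCSF before OHT (1.48, SE 0.0415, adjusted p = 8.92e-61). After OHT in GCSF it rose further to 10120, 9921 and 10067 at 80h (0.77 above GCSF 0h, adjusted p = 2.66e-34). It then came down to 3676, 3620 and 3579 at 168h, below GCSF 0h by -0.70 (adjusted p = 7.25e-31) but above undifferentiated cells by 0.78 (adjusted p = 1.9e-35). In IL3 it first fell, to 1214, 1249 and 1268 at 4h (-0.76, adjusted p = 1.04e-33), and then rose to 5174, 4929 and 5113 at 88h (1.27, adjusted p = 4.85e-54). The next highest groups in the order of levels were GCSF-OHT 56h at 9767 ± 206.2 (SD, n = 3) and IL3-OHT 80h at 4837 ± 145.3 (SD, n = 3). At IL3-OHT 168h Lta4h was at 2973, 2887 and 2719, a difference of 0.44 from the start that did not pass the fold threshold.

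Ltc4s, the entry to the cysteinyl leukotrienes, was scarce. It was 20.9, 16.4 and 18.9 in undifferentiated cells and 41.59, 35.41 and 41.01 at GCSF 0h. These libraries did not overlap, but the difference (1.03, SE 0.474) had an adjusted p of 0.0539. It was called with edgeR on the recovered reads (adjusted p = 0.0124) and with DESeq2 (adjusted p = 0.0081), and over all 13 alternatives the adjusted p ran from 0.00468 to 0.171. After OHT in GCSF it was called lower than GCSF 0h at 23 of 27 time points, from 8h on (-1.18, adjusted p = 0.0437). The 3 libraries at 64h were at 0.941, 4.04 and 2.50, around the floor. At GCSF-OHT 168h it was 7.87, 7.82 and 9.41 (-2.11 from GCSF 0h, SE 0.474, adjusted p = 6.58e-05). In IL3 it was called lower than the start at 9 of 25 time points and was at 13.1, 15.6 and 13.2 at 168h (-0.40, adjusted p = 0.518). The summed mast cell and basophil markers were 233 to 250 in undifferentiated cells, 523 to 647 at GCSF 0h, 396 to 441 at GCSF-OHT 168h and 70.1 to 96.1 at IL3-OHT 168h, while 7 of the 11 markers were at the floor; the part of such cells in the Ltc4s values was not tested.

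**Figure D2:**
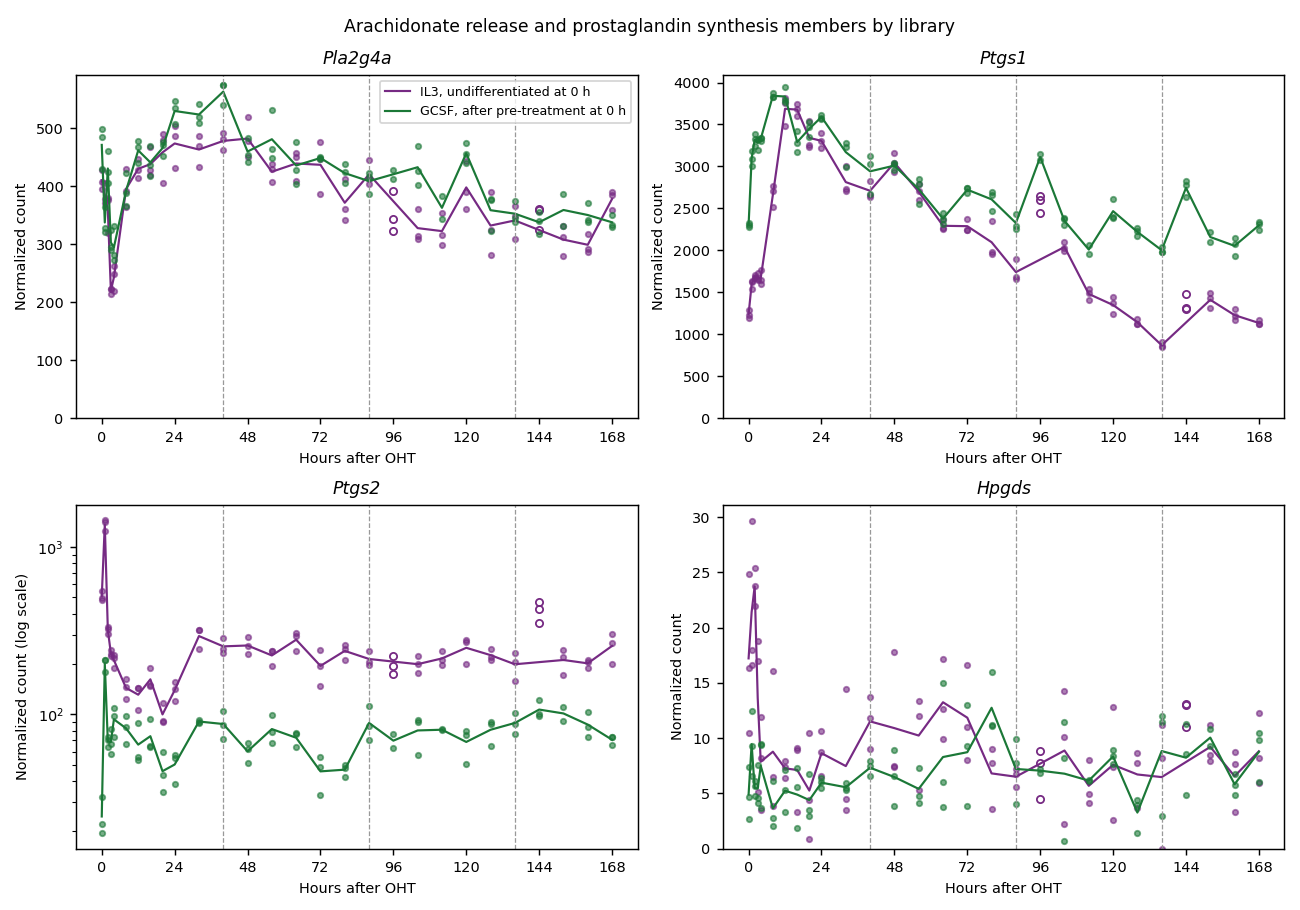
Normalized counts of Pla2g4a, Ptgs1, Ptgs2 (log axis) and Hpgds against hours after OHT, drawn as for the leukotriene members (1 point per library, lines through group means, purple IL3, green GCSF, open points IL3-OHT 96h and 144h, dashed lines medium renewals). Ptgs2 is highest 1h after OHT in both courses and lies lower in GCSF throughout; Ptgs1 peaks between 8h and 16h.

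Ptgs1, the first cyclooxygenase, rose within hours of OHT in both courses. In the GCSF pre-treatment it went from 1200, 1284 and 1229 to 2283, 2303 and 2325 (0.90, SE 0.0495, adjusted p = 8.16e-34). After OHT in GCSF it was at 3825, 3877 and 3824 at 8h (0.74, adjusted p = 1.89e-26). This was 1 of 4 time points called against GCSF 0h, all of them between 8h and 24h. In IL3 it reached 3820, 3757 and 3484 at 12h (1.57, adjusted p = 9.27e-56), and 13 time points between 8h and 104h were called higher than the start. It then declined to 902.5, 854.7 and 850.9 at 136h. At 168h Ptgs1 was at 1120, 1167 and 1119 in IL3, -0.12 from the start (adjusted p = 0.0283), and at 2336, 2318 and 2240 in GCSF, overlapping the GCSF 0h libraries (adjusted p = 0.988).

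Ptgs2, the inducible cyclooxygenase, had the largest change of the 8 members in the GCSF pre-treatment. It fell from 547, 496 and 480 to 22.2, 31.9 and 19.6 (-4.34, SE 0.189, adjusted p = 1.13e-42). At 1h after OHT it was high in both courses: 1408, 1442 and 1242 in IL3 (1.42 above the start, adjusted p = 8.7e-10) and 178.4, 212.3 and 210.3 in GCSF (3.00 above GCSF 0h, adjusted p = 3.81e-28). By 2h it had dropped to 300.5, 322.4 and 333.5 in IL3 (-2.09 from 1h, adjusted p = 3.13e-18) and to 69.9, 63.7 and 72.9 in GCSF (-1.53, adjusted p = 3.64e-11). Against the start, Ptgs2 was then lower at all 24 later IL3 time points tested, with its lowest mean at 20h (91.91, 90.51 and 117.5), and higher at all 27 GCSF time points. Smaller steps in the same direction followed in both courses: it fell from 16h to 20h and rose from 24h to 32h in IL3 (-0.69 and 1.07) and GCSF (-0.69 and 0.86), all 4 called. At 168h it was at 200.7, 265.3 and 303.5 in IL3 (-1.0003 from the start, adjusted p = 2.44e-06) and 72.8, 73.02 and 65.88 in GCSF (1.51 above GCSF 0h, adjusted p = 7.63e-12, and -2.83 from undifferentiated cells, adjusted p = 1.76e-27). On the genome Ptgs2 (chr1:150100031-150108227, plus strand) and Pla2g4a (chr1:149829618-149961290, minus strand) are neighbours 138740 bases apart. Their log2 group means over the 54 groups tested had a Pearson r of -0.29, given as a description only, since groups of 1 course share a start.

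Hpgds, the hematopoietic prostaglandin D synthase, was near the floor. It was 10.5, 16.4 and 24.8 in undifferentiated cells and 7.39, 2.66 and 4.66 at GCSF 0h, groups that did not overlap (-1.63, SE 0.555, adjusted p = 0.00823). The call was lost without replicate 2 (adjusted p = 0.111) or replicate 3 (adjusted p = 0.0925), and its adjusted p ran from 0.00194 to 0.111 over the alternatives. In IL3 it was 23.76, 22.01 and 25.45 at 2h and was called lower than the start at 6 of 25 time points; in GCSF none of 27 was called.

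Set between the ends of the courses, 4 of the 8 members were called in the GCSF pre-treatment: Lta4h and Ptgs1 rose (13% of all genes tested did) and Ptgs2 and Hpgds fell (20.7% of all genes). Their median log2 change was 0.18, against -0.09 over all genes. From undifferentiated cells to IL3-OHT 168h, Alox5 rose (10.2% of genes) and Ptgs2 fell (15.2%), with a median of -0.12 against -0.03. From GCSF 0h to GCSF-OHT 168h, Alox5 and Ptgs2 rose (12.1%) and Lta4h and Ltc4s fell (12.6%), with a median of 0.17 against 0.00. From undifferentiated cells to GCSF-OHT 168h, Alox5, Lta4h and Ptgs1 rose (15.5%) and Ltc4s and Ptgs2 fell (23.6%), with a median of 0.05 against -0.11. The call of Ltc4s in the last comparison (-1.07, adjusted p = 0.0417) was lost without replicate 1, 2 or 3, with adjusted p of 0.217, 0.0979 and 0.0609, and over all alternatives the value ran from 0.00675 to 0.217. These comparisons share starting libraries and are therefore not independent. In bulk RNA, fewer cells expressing a gene and less RNA per cell cannot be told apart.

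**Figure D3:**
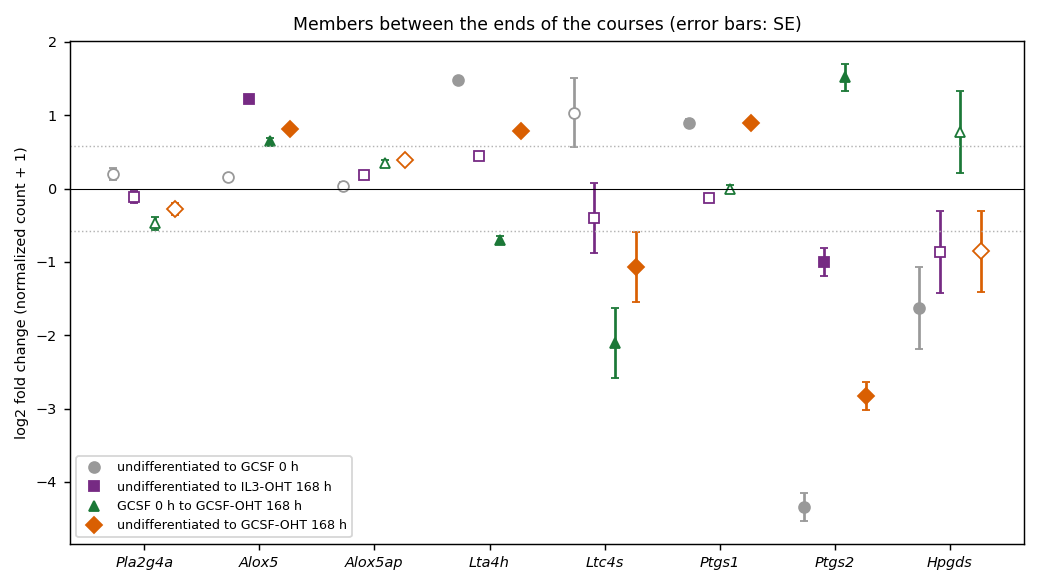
Log2 fold change of each member (SE as bars) in 4 comparisons, with filled symbols where the gene was called and open symbols where it was not; dotted lines mark the fold threshold. Alox5 was higher at 168h of both courses, while Ptgs2 was lower in GCSF 0h and at both ends than in undifferentiated cells.

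Over whole courses, 7 of the 8 members changed in IL3 at some time (all but Alox5ap), where 69.7% of all genes did, and 7 in GCSF (all but Hpgds), where 47.7% did. Single steps between consecutive time points were called 10 times among 200 member tests in IL3 (3.65% of all tests over all genes) and 7 times in GCSF (1.81%; 4 times without replicate 3). Ptgs2 made 4 of the 10 and 6 of the 7. In IL3 the remaining steps were the fall and return of Pla2g4a at 3h and 8h (-0.70 and 0.70), the rises of Alox5 and Ptgs1 at 8h (0.87 and 0.67), and, from 136h to 152h, a fall of Lta4h (-0.89) with a rise of Ptgs1 (0.70). In GCSF the other step was a rise of Ltc4s at 168h (1.85) between libraries of 0 to 3 and of 6 to 11 reads. Against the start of OHT, 89 of 200 member tests were called in IL3 (26.7% of all tests over all genes) and 80 in GCSF (15.4%), which had 27 time points against 25. Sorted by level, most neighbouring groups overlapped. Of 27 neighbouring pairs in each course, those whose libraries did not overlap numbered 10 in IL3 and 3 in GCSF for Alox5. They numbered 7 and 9 for Lta4h, 5 and 3 for Ptgs1, 3 and 2 for Ptgs2, and at most 2 for each of the other members. The IL3 order of levels includes the time points excluded by the study as outliers. The pair counts are given as a description only, without a share over all genes.

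Between the courses at the same hours, 2 members were called over the mean of the 25 shared time points. Lta4h was higher in GCSF (1.24, SE 0.00838, adjusted p = 2.82e-128; 9.34% of all genes were called higher), with no overlap between the libraries at any of the 25 time points and calls at 22. The difference was largest at 4h (2.07) and smallest at 168h (0.34). Ptgs2 was lower in GCSF (-1.57, SE 0.0382, adjusted p = 1.05e-68; 15.1% of genes were called lower), with no overlap and a call at all 25, from -2.76 at 1h to -0.80 at 8h. Ptgs1 was called higher in GCSF at 10 time points, the first 4 (0.95 to 0.99) and 6 from 120h on. The largest difference was 1.203 at 136h, while at 56h it was 0.02 (adjusted p = 0.854). Alox5 was called lower in GCSF at 8 time points from 40h to 120h, most at 48h (-0.82). Its mean difference of -0.39 did not pass the fold threshold. Alox5ap and Pla2g4a were called at none, Hpgds at 2h only, and Ltc4s at 3 early time points as higher and 4 from 64h on as lower in GCSF. In all, 73 of 200 member tests were called, against 22.7% over all genes and time points.

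**Figure D4:**
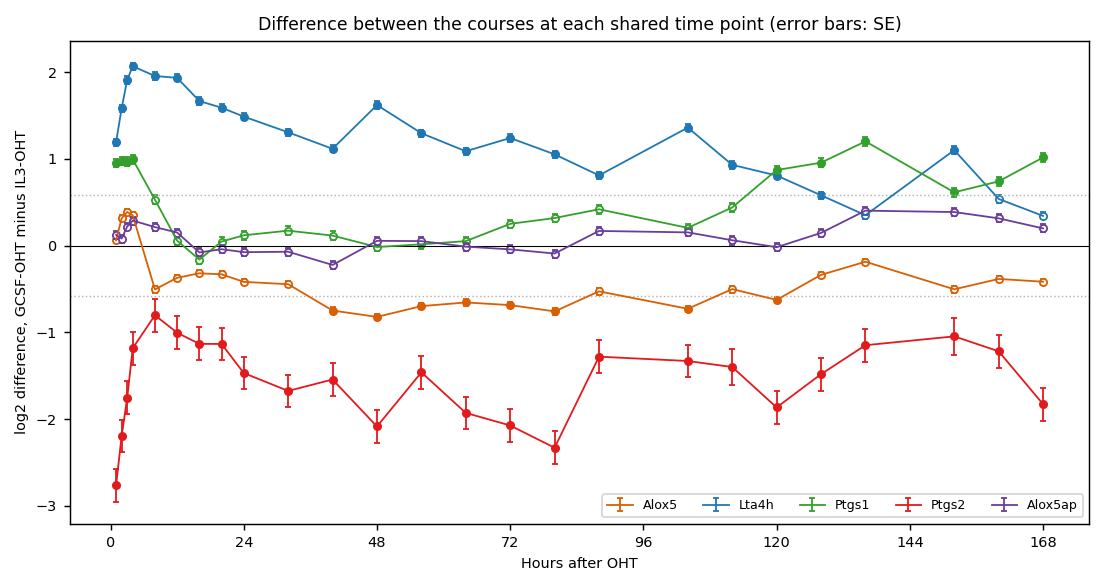
Log2 difference between GCSF-OHT and IL3-OHT (positive: higher in GCSF; SE as bars) at the 25 shared time points for 5 members, filled where called; dotted lines mark the fold threshold. Lta4h is above 0 and Ptgs2 below 0 at every time point, and Ptgs1 shows its differences early and late.

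Since the courses start from different cells, the change since OHT was also compared between them. At 8h, Ptgs2 had risen in GCSF and fallen in IL3, a difference of 3.54 (SE 0.267, adjusted p = 3.79e-23), and Alox5 had risen in IL3 and was not called in GCSF, a difference of -0.66 (SE 0.0513, adjusted p = 1.75e-22). These were 2 of 8 members, where 27.4% of all genes were called in either direction. At 168h, 3 of 8 members were called (25.7% of all genes): Ptgs2 (2.51, SE 0.267, adjusted p = 1.3e-14), Lta4h (-1.14, SE 0.0587, adjusted p = 1.56e-35), which had come down from its GCSF 0h level while lying above the start in IL3, and Ltc4s (-1.71, SE 0.67, adjusted p = 0.0294). The last was lost without any 1 of the replicates (adjusted p of 0.136, 0.132 and 0.0518, with a range of 0.000603 to 0.136 over all alternatives). Alox5 lay at the fold threshold (-0.58, adjusted p = 1.39e-18).

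The time points 8h after each medium renewal were compared with the mean of those 8h before and after, a comparison chosen after the values had been seen, in a fit that included IL3-OHT 96h and 144h. Of 48 member tests, 3 were called, against 6.89% of tests over all genes. Lta4h was low at IL3-OHT 96h, with 1873, 2118 and 1922 between 5174, 4929 and 5113 at 88h and 3295, 3459 and 3565 at 104h (-1.08, SE 0.0376, adjusted p = 1.12e-51). It was low again at 144h, with 1697, 1563 and 1795 between 4481, 4009 and 4088 at 136h and 2285, 2233 and 2266 at 152h (-0.87, adjusted p = 1.34e-42). At 48h the same difference in IL3 was -0.31, below the fold threshold. In GCSF it was 0.10, -0.06 and -0.08 at the 3 times. Ptgs2 was high at IL3-OHT 144h, with 468.5, 424.5 and 352.0 (1.02, adjusted p = 4.37e-08). Below the fold threshold, Ptgs1 was higher in both courses at 96h (GCSF 0.41, IL3 0.45) and 144h (0.40 and 0.30). Alox5ap, also below it, was lower at 96h (GCSF -0.28, IL3 -0.19) and at IL3-OHT 144h (-0.37), with -0.08 at GCSF-OHT 144h (adjusted p = 0.214). Alox5 had its highest IL3 mean, 8392, at 96h (0.27). The courses differed in these changes for Lta4h at 96h (GCSF minus IL3 1.02, SE 0.0574, adjusted p = 6.8e-31) and 144h (0.79, adjusted p = 3.55e-25) and for Ptgs2 at 144h (-0.85, adjusted p = 0.00263), 3 of 24 member tests, where 6.34% of tests over all genes were called. Renewal, fresh OHT and the plate of that hour cannot be told apart.

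The genes with the pattern most like each member, over the log2 means of the 54 groups and among 11590 candidate genes, are given as a description. For Lta4h they were Hsd17b1 (Pearson r = 0.97), Rnd1 (0.95) and Ptpn18 (0.94), for Alox5 Hk3 (0.94), Scd2 (0.93) and F3 (0.91), and for Ptgs1 Gusb (0.93), Ebp (0.91) and Acsl5 (0.91). For Ptgs2 they were Tcim (0.92), Osm (0.91) and Phlda1 (0.90), for Alox5ap Wbp2 (0.89), Slc2a6 (0.88) and Ostm1 (0.87), and for Ltc4s Dusp2 (0.89), Fam189a2 (0.86) and Cst7 (0.84). Pla2g4a (Spcs3, 0.81) and Hpgds (Phldb2, 0.73) had the lowest values. Among the members themselves the strongest relations were -0.67 between Lta4h and Ptgs2, -0.60 between Alox5ap and Ltc4s, 0.58 between Ptgs2 and Hpgds, -0.54 between Ptgs1 and Ptgs2 and 0.52 between Alox5 and Alox5ap.

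Of 61 other genes of the pathway, 49 passed the filter on low values. Between undifferentiated cells and IL3-OHT 168h, 11 of the 49 rose and 10 fell (median 0.02), where 10.2% and 15.2% of all genes did (median -0.03). Between undifferentiated cells and GCSF-OHT 168h, 10 rose and 18 fell (median -0.24), where 15.5% and 23.6% of all genes did (median -0.11). Among the steps from leukotriene C4 onward, the dipeptidases Dpep2 and Dpep3, of which Dpep2 cleaves leukotriene D4, fell in both. Dpep2 went from a mean of 2636 to 846 in IL3 (-1.64) and 242.5 in GCSF (-3.43), and Dpep3 from 964.5 to 46.3 (-4.35) and 12.8 (-6.15). The glutamyltransferase Ggt5, which converts leukotriene C4, rose from 7.68 to 42.2 (2.47) and 133.4 (4.13). Mgst2, which can also make leukotriene C4, was abundant and was called in neither comparison (0.15 and 0.36).

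Of the receptors, Ltb4r1, the high-affinity receptor of leukotriene B4, rose from 38.3 to 104.3 (1.43) and 169.4 (2.12), and Ltb4r2, the low-affinity one, fell from 33.4 to 6.23 (-2.25) and 3.40 (-3.11). The cysteinyl leukotriene receptors went different ways: Cysltr1 was called higher in both comparisons, and Cysltr2 was called lower in GCSF only. Means of Cysltr2 were 38.1, 17.5 in IL3 and 1.85 in GCSF, and Cysltr2 was also lower in GCSF over the shared time points (-1.90). The thromboxane receptor Tbxa2r fell from 114.2 to 5.33 (-4.32) and 4.88 (-4.36), and the prostaglandin E2 receptor Ptger2 from 2175 to 966 (-1.17) and 538 (-2.02). The end means of Tbxa2r, and those of Ltb4r2 and Cysltr2 in GCSF, lay within or below the range of the floor. The sizes of these falls are therefore imprecise. Ptger4 fell in IL3 (-1.97) and was higher in GCSF over the shared time points (1.13). The prostacyclin receptor Ptgir rose in both (0.80 and 1.22). In all, 3 of 12 tested receptors rose and 5 fell in IL3, and 3 rose and 6 fell in GCSF (of all genes, 10.2% and 15.2% in IL3, 15.5% and 23.6% in GCSF).

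Among the terminal synthases, which turn prostaglandin H2 into its products, thromboxane synthase Tbxas1 rose in IL3, from a mean of 4.33 to 40.98 (3.24). At GCSF-OHT 168h it was at 5.25 (0.38, not called). The difference over the shared time points was -2.62. The means of 4.33 and 5.25 lay within the range of the floor. The lipocalin-type prostaglandin D synthase Ptgds rose in GCSF, from 1.74, below the floor, to 22.2. The prostaglandin E synthase Ptges fell in GCSF (-0.86), while Ptges2 and Ptges3 were called in neither. Cyp4f18, which hydroxylates leukotriene B4 in neutrophils, rose from 0.436, below the floor, to 55.1 in GCSF. In IL3 it was called higher as well, but its mean of 3.67 lay within the range of the floor. Of the genes that put arachidonic acid back into membranes, Lpcat2 rose in GCSF (2.05) and Acsl4 fell (-0.85), and neither was called in IL3. Over the mean of the shared time points, 7 of the 49 were higher in GCSF and 13 lower (9.34% and 15.1% of all genes), with a median of -0.34 against -0.06 over all genes, beside 1 higher and 1 lower of the 8 members.

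**Figure D5:**
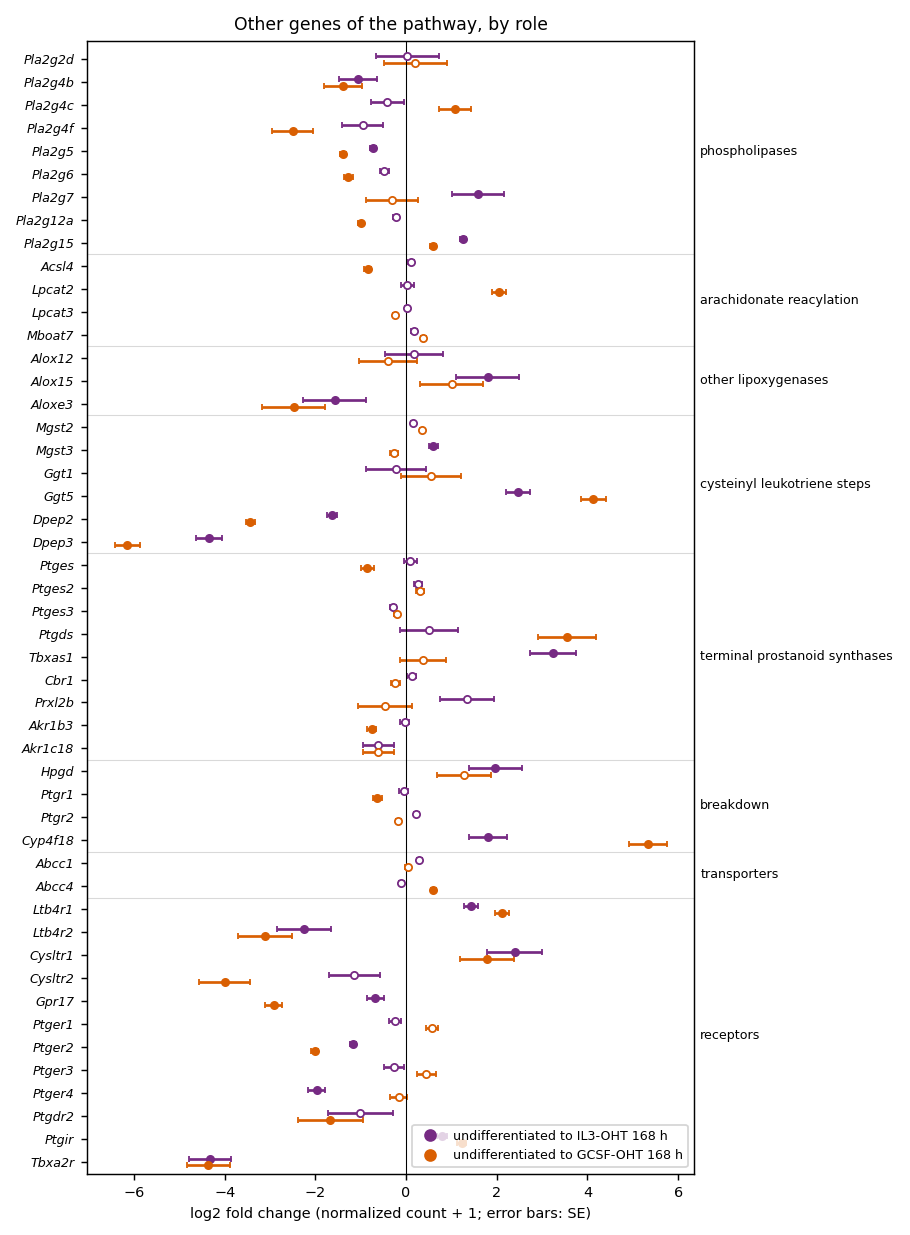
Log2 fold change (SE as bars) of the 49 tested other genes of the pathway, grouped by role, from undifferentiated cells to IL3-OHT 168h (purple) and to GCSF-OHT 168h (orange), filled where called. The dipeptidases and Tbxa2r are far below 0 in both, Cyp4f18 and Ggt5 above 0 in both, and Tbxas1 and Ptgds are called in 1 of the 2 courses only.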

How the data were processed

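RNA-Seq libraries were assigned to condition, time point and replicate by their labels. The GCSF 0h titles name OHT, but their descriptions and the methods place them before OHT. The authors quantified transcripts with Salmon (GRCm38) and divided by DESeq2 size factors, and the deposited values are this normalized count signal. All nonzero values were whole multiples of 1 read (within 0.01 reads), from which the reads were recovered.

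The groups' means were fitted together with limma 3.58.1 (R 4.3.3, eBayes with trend) on log2(normalized count + 1), for the 17414 genes with at least 5 in some library, over 159 libraries and 54 groups. Values were adjusted over all genes of each comparison by the Benjamini-Hochberg method. The log2 fold threshold of 0.58 and the adjusted p threshold of 0.05 were those of the study. A change over a course needed a moderated F test and the fold threshold at 1 time point or more. The p-values measure the spread between replicate cultures of 1 line within the plate of each time point. They do not measure the spread between plates. As alternatives, edgeR 4.0.16 and DESeq2 1.42.0 on the recovered reads, pseudocounts of 0.5 and 5, other filters, upper-quartile scaling, a replicate block, left-out replicates, fits of only the groups compared and a fit with IL3-OHT 96h and 144h were run. The scripts were tested on simulated data. No replicate pair agreed within sampling noise. Genes named besides the 8 members came from a pathway list, or were the 3 genes with the highest Pearson r to a member among genes whose highest group mean was at least 50. The members and lists were chosen with earlier results of these data known. Exon lengths are unions of GENCODE M21 exons. The floor of 3 reads covers counting error only.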

Additional observations from a re-analysis of the deposited data

Results flagged for a closer look

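The change since OHT differed between the courses, tested as an interaction, for Ptgs2 at 8h (GCSF minus IL3 3.54 on the log2 scale) and 168h (2.51), for Alox5 at 8h (-0.66) and for Lta4h (-1.14) and Ltc4s (-1.71) at 168h. In the IL3-OHT 144h libraries, which entered no comparison between the courses' ends, Ptgs2 was 1.02 above the mean of 136h and 152h on the log2 scale. The call of Ltc4s at 168h was lost on leaving out replicate 1, 2 or 3 (limma, adjusted p of 0.136, 0.132 and 0.0518). Single libraries were not screened for standing apart within their groups of 2 or 3.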

How the results depend on the processing

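The counts of called members stayed within 1.5 times of the reported ones under every alternative run, with 2 exceptions. Steps between consecutive GCSF time points numbered 4 to 5 over the left-out replicates, against 7, the 4 being without replicate 3. The calls 8h after renewal numbered 3 to 5, against 3, the 5 being without replicate 2. For single members in the 7 comparisons of groups, 692 results kept their call, 10 lost it and 11 gained it, and none reversed. Those that changed concerned Ltc4s and Hpgds, where low reads limit the precision, and Alox5 at its fold threshold: its difference between the 168h changes was called with upper-quartile scaling (-0.61), edgeR (-0.60) and without replicate 2 (-0.60) or 3 (-0.59). With a filter on a mean of at least 10, Hpgds was not tested. Upper-quartile scaling shifted the median of all genes by at most 0.03. Replicate numbers did not pair the samples, as 0 of 12 correlations of same-numbered deviations exceeded 0.1 (-0.05 to 0.08), and a replicate block left the counts at 89 and 80 calls against the start in IL3 and GCSF. The cause of these shifts was not tested.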
